A study of Homo sapiens with 30 samples.

Results

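Wild-type K562 cells given DNMT1i, a compound that selectively blocks the DNA methyltransferase DNMT1, at 10 µM for 3 days were compared with K562 cells given the solvent DMSO (0.1%) for 3 days. The 6 libraries were chosen by their labels, 3 replicates of each treatment, out of 30 in the whole study, and every gene and exon bin in their count tables was considered. K562 cells come from a chronic myeloid leukaemia and keep erythroid features. Both groups were the same unmodified line, and by their labels they differed only in the compound. Each replicate was a separate culture, and p-values here measure the spread between cultures of a single line. The other groups of the study are wild-type HCT116 cells (a colorectal carcinoma line) given the same treatments, a CTCF-tagged HCT116 line, and a K562 line with tagged speckle proteins; of these, HCT116 and the DMSO libraries of the tagged K562 line (6 hr of treatment) were used only to show where wild-type K562 differed.

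DNMT1 is the maintenance methyltransferase: it restores methylation at CpG dinucleotides on the newly made strand after replication, so methylation is lost by dilution in dividing cells when the enzyme is blocked. Methylation of CpG-rich promoters holds many germline genes silent in somatic cells, and it marks the silent allele of imprinted genes. Blocking DNMT1 asks which genes change when this maintenance is stopped, here in a line of blood cell origin. Methylation was not measured in these RNA libraries, and direct and indirect changes were not told apart.

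Reads assigned to genes numbered 16606855 to 20924381 per K562 library. DMSO replicate 3 stood apart from the other DMSO libraries: its counts differed from theirs by 26.2 and 27.7 times sampling noise (chi-square per degree of freedom), against 2.31 between DMSO replicates 1 and 2 and 6.22 to 9.80 among the DNMT1i libraries, and its mitochondrial share was 12.8% against 10.1% and 10.6%. The numbers of called genes, list members and exon bins are also given without it below. Single genes and gene lists are given with all 6 libraries unless stated. Of 11 markers of K562 cells, 10 were above 1 CPM (1 count in 1000000 of the library) in DMSO and HBE1 was below, and their summed level was 1792 to 1920 CPM in DMSO and 1278 to 1480 CPM with DNMT1i, with TFRC falling from a mean of 1269 to 779 CPM. Of 10 HCT116 markers, 2 had no read in the DMSO libraries, and the sum was 148 to 162 CPM in DMSO and 199 to 216 CPM with DNMT1i, against 1221 to 1681 CPM in HCT116 libraries. The 2 without a read, KRT20 and CEACAM5, had means of only 1.26 and 0.0415 CPM in HCT116 DMSO, so their absence does little to tell the lines apart. Of 6 fibroblast markers, 2 had no read and the sum stayed at or below 4.14 CPM. DNMT1 RNA stood at 331, 325 and 418 CPM in DMSO and 310, 334 and 349 CPM with DNMT1i (log2 fold-change −0.11 ± 0.10 SE, p-adj = 0.58, and 0.01 without DMSO replicate 3), which does not check the labels because the compound blocks the enzyme. In bulk RNA, fewer cells expressing a gene and less RNA per cell cannot be told apart.

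Genes were counted as higher or lower with DNMT1i at a p-adj (edgeR's quasi-likelihood test, Benjamini-Hochberg adjusted over all genes tested) below 0.05 and a |log2 fold-change| above 0.5. By this rule 785 genes (5.72% of 13726 tested) were higher and 197 (1.44%) were lower. The upward changes were also the larger ones: 573 genes rose more than 2-fold and 106 rose more than 64-fold, while 40 genes fell more than 2-fold and 0 fell more than 4-fold. The number of lower genes depended on single libraries, with 392 without DMSO replicate 3 and 112, 115 and 119 without DNMT1i replicates 1, 2 and 3, against 1109, 621, 639 and 709 higher genes in the same fits.

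Responses were grouped by the gene's level in DMSO. Levels were taken as CPM per kilobase of exon, and a gene was called off below 0.1, low from 0.1 to 1 and expressed above 1. Genes that were off in DMSO made up 41.8% of the higher genes (328 of 785), low genes 31.6% and expressed genes 26.6%. Of the lower genes 74.6% were expressed in DMSO. The median log2 fold-change was 4.53 among off genes that were higher, 1.47 among low genes and 0.71 among expressed genes, an order that the filter on low counts favours because an off gene passes it only with a large rise. Of the 328 off genes that rose, 88 ended above 1 CPM per kilobase and 44 had no DMSO read at all. These counts need care, because an off gene could enter the test only if its reads appeared with DNMT1i: of 42640 off genes in the tables, 14358 had a read in any of the 6 libraries and 547 were tested, so the 328 are 0.769% of all off genes. Among expressed genes, which pass the filter in either group, 209 of 10438 (2.0%) were higher and 147 (1.41%) were lower.

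**Figure D1:**
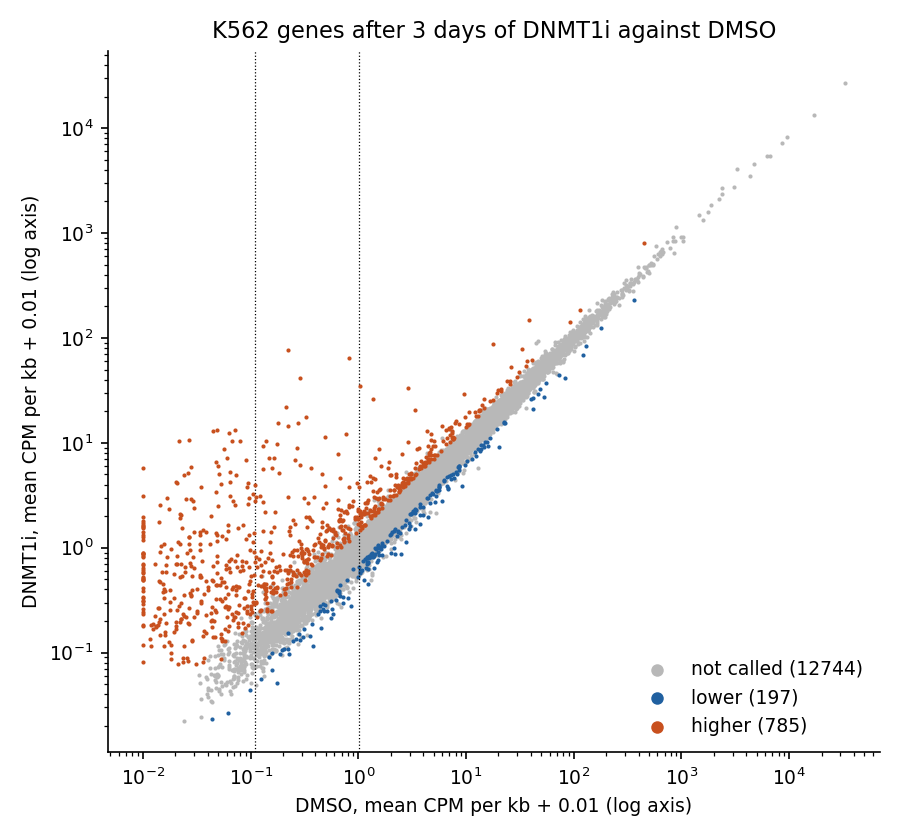
Each point is a gene tested in K562 cells, with its mean level in 3 DMSO libraries on the x axis and in 3 DNMT1i libraries on the y axis, both in CPM per kilobase plus 0.01 on log axes; dotted lines mark 0.1 and 1 CPM per kilobase in DMSO. Higher genes (785) spread far above the diagonal on the left, where genes were off in DMSO, and most lower genes (197 in all) lie close below it on the right.

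Most off genes that rose were also off in other libraries of the same cell type. Of the 328 off genes that rose, 274 (83.5%) were also off in DMSO libraries of the tagged K562 line, and 5 were above 1 CPM per kilobase there. In HCT116 cells treated with DMSO, 206 (62.8%) were off and 67 were above 1 CPM per kilobase. The choice of genes off in wild-type K562 favours these shares. The same shares over all off genes were not computed, so they do not set apart the genes that rose. By annotated type, 654 of 11247 protein-coding genes tested, 96 of 1227 long noncoding RNAs (7.82%) and 31 of 1154 pseudogenes (2.69%) were higher. By chromosome, the share of tested genes that were higher was 10.6% on X (54 of 511) and 10.1% on 19 (99 of 976), from 2.83% to 7.12% on the other autosomes, and 0 of 25 on the mitochondrial genome.

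To show the sequence at the start of genes that switched on, RefSeq promoters (GRCh38.p14, 250 bases before to 50 after the start) are given for the germline genes DAZL, MAEL, TDRD12 and DPEP3 and for the imprinted noncoding RNA MEG3, all of which were nearly silent in DMSO. They are followed by S100P, which was expressed and rose, and by SUV39H1, which was expressed and fell. CG dinucleotides, the sites that DNMT1 maintains, are in capitals.
DAZL, chr3:16605374-16605673 (- strand): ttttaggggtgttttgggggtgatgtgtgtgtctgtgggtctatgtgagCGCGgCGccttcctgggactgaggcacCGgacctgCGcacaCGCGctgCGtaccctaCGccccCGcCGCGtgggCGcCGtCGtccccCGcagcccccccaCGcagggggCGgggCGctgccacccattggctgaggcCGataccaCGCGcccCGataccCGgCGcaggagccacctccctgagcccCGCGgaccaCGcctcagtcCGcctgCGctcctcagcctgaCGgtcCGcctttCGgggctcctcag
MAEL, chr1:166975332-166975631 (+ strand): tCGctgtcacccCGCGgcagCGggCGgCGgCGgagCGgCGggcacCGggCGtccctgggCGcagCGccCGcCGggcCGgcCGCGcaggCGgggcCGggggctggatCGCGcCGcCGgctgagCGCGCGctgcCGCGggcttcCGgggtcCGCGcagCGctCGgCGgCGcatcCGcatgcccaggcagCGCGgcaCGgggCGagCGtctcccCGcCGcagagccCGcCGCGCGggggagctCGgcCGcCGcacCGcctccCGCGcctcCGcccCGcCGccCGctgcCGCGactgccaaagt
TDRD12, chr19:32719517-32719816 (+ strand): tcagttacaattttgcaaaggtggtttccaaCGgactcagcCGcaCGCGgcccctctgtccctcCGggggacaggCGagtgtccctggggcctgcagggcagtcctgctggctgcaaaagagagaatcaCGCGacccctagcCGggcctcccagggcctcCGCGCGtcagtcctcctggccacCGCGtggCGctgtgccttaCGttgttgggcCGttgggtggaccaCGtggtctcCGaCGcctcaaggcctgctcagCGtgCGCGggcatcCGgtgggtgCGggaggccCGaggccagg
DPEP3, chr16:67980450-67980749 (- strand): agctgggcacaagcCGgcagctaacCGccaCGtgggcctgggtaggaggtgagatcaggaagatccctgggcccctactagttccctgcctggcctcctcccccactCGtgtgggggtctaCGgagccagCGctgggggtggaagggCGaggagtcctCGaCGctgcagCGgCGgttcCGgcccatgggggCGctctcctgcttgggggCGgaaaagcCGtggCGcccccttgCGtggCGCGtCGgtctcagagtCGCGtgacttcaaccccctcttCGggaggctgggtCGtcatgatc
MEG3, chr14:100825858-100826157 (+ strand): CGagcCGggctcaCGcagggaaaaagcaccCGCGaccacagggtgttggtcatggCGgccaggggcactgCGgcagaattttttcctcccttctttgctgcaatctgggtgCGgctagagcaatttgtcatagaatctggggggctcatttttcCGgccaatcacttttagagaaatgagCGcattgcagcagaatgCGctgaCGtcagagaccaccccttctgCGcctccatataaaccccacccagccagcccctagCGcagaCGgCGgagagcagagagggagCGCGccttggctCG
S100P, chr4:6693628-6693927 (+ strand): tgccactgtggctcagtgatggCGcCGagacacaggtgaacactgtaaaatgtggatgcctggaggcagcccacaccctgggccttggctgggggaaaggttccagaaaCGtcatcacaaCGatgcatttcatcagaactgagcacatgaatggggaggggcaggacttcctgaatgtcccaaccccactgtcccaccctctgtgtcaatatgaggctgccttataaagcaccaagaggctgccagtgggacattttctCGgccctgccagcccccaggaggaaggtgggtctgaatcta
SUV39H1, chrX:48695304-48695603 (+ strand): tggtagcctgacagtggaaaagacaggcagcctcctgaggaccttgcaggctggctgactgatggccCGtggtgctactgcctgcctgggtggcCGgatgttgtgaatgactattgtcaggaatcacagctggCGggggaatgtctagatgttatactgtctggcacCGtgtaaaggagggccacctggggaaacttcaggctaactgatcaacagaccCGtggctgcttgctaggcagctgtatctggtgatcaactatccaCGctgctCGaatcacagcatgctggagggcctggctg
MAEL held 60 CG, DAZL 33, TDRD12 26, DPEP3 24 and MEG3 19, while SUV39H1 held 7 and S100P 5. Of the 27305 promoters listed, 41.2% held at least 20. These promoters do not stand for their classes: MEG9, which was off and rose, held 4, while S100A6, expressed and rising, held 31 and WAS, expressed and falling, 26. The medians were 19 for off genes that rose, 24 for expressed genes that rose and 22 for expressed genes that fell.

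The piRNA pathway, which makes small RNAs that silence transposons in germ cells, had the largest share of higher genes among the lists examined. Of 27 genes listed, 19 were tested, 13 (68.4%, against 5.72% of all genes tested) were higher and 0 lower, with a median log2 fold-change of 5.88 (5.34 with genes that had no DMSO read set at their bound) against −0.0021 over all genes tested; 12 of the 19 were off in DMSO and entered the test through the DNMT1i libraries. TDRD12, a tudor-domain partner of the PIWI proteins, was at 0.381, 0.236 and 0.189 CPM in DMSO and at 44.4, 44.7 and 48.2 CPM with DNMT1i. The DNMT1i libraries all lay above the DMSO libraries, and the log2 fold-change was 7.33 ± 0.18 (SE, p-adj = 2.91e-09). PIWIL2, the only PIWI protein gene among the higher members, was at 0.381, 0.766 and 0.566 CPM in DMSO and at 24.8, 22.5 and 21.3 CPM with DNMT1i (5.34 ± 0.20). MAEL, which acts in transposon silencing in the male germline, rose from 0.715, 0.118 and 0.377 CPM to 35, 30.7 and 33.6 CPM (6.26 ± 0.26). TDRD9, a helicase of the pathway, had 0 reads in the 3 DMSO libraries and 8.79, 7.35 and 6.75 CPM with DNMT1i, at least 137-fold higher when 3 reads are allowed over the DMSO group. TDRD6 and MOV10L1 were likewise without a read in DMSO and reached a mean of 2.96 and 2.05 CPM. DDX43, an RNA helicase, had 3 DMSO reads and 438 with DNMT1i, a ratio of 138 (95% counting interval 47.0 to 674). Not every member moved. GTSF1, a PIWI cofactor, was already at 150.1 CPM in DMSO and at 149 CPM with DNMT1i (−0.01 ± 0.08, p-adj = 0.95), and PIWIL4, TDRD7, TDRKH, PLD6 and TEX15 were tested and not called, with log2 fold-changes from −0.36 (TEX15) to 0.51 (PIWIL4, p-adj = 0.37).

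Regulators of germ cell identity were on the list with 26 genes, of which 11 were tested, 6 (54.5%, against 5.72% of all genes tested) were higher and 0 lower (median log2 fold-change 2.76). Here 6 of the 11 were off in DMSO and entered the test through the DNMT1i libraries, which favours a high share and median. Over all 13726 genes tested 547 were off. The same limit holds for each list below that has off members. DAZL, which binds messenger RNAs and promotes their translation in germ cells, went from 0.191, 0.236 and 0.189 CPM to 39.0, 34.7 and 38.3 CPM. YBX2, a cold-shock protein that stores mRNA in germ cells, had a single read over the DMSO group and 4.49, 3.56 and 4.54 CPM with DNMT1i, a ratio of 228 (95% counting interval 40.4 to 9022). BRDT, the testis bromodomain protein, had 3 DMSO reads and 6.71, 3.79 and 5.05 CPM with DNMT1i (ratio 94.5, interval 32.0 to 461), and BOLL, a relative of DAZL, had 1 DMSO read and 107 with DNMT1i (ratio 101, interval 17.8 to 4043). GCNA, a germ cell nuclear protein outside that list, had the highest CPM with DNMT1i of the named genes that were off or low in DMSO (per kilobase DPEP3 was higher), at 1.1, 1.0 and 0.88 CPM in DMSO and 155, 147 and 143 CPM with DNMT1i (7.20 ± 0.13, p-adj = 5.01e-10).

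Meiosis genes did not move as a block. Of 39 listed, 21 were tested, 9 (42.9%, against 5.72% of all genes tested) were higher and 1 lower, and the median log2 fold-change was 0.56. Members off in DMSO were 5 of the 21. HORMAD1, which sits on the axis of meiotic chromosomes, was at 0.334, 0.118 and 0 CPM in DMSO and 30.9, 31.5 and 33.3 CPM with DNMT1i (7.53 ± 0.30). SYCP3, a core protein of that axis, rose from 0.286, 0.0589 and 0.126 CPM to 21.7, 16.4 and 19.9 CPM (6.80 ± 0.28). The groups did not overlap for either gene. STAG3, the meiotic cohesin subunit, was already transcribed in DMSO at 1.43, 2.06 and 2.14 CPM and rose to 19, 16.8 and 18.9 CPM (3.30 ± 0.16). SYCE2, of the central element of the synaptonemal complex, went the other way, from 3.34, 2.83 and 3.58 CPM to 1.28, 1.17 and 1.39 CPM (−1.34 ± 0.20, p-adj = 0.00134), with all DNMT1i libraries below all DMSO libraries.

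Cancer-testis genes of the X chromosome, which encode proteins normally made in testis and in some tumours, were listed with 75 members. Of these 31 were tested, 15 (48.4%, against 5.72% of all) were higher and 0 lower (median log2 fold-change 0.98). Members off in DMSO were 11 of the 31. MAGEA4 rose from 0.715, 1.18 and 0.817 CPM to 50.1, 59.0 and 47.6 CPM (5.86 ± 0.18) and MAGEA10 from 0.0954, 0.236 and 0.126 CPM to 36.9, 34.4 and 36.7 CPM (7.86 ± 0.20). TEX13C had 2 DMSO reads and 897 with DNMT1i, a ratio of 425 (95% counting interval 117 to 3516). PAGE2B had 0 DMSO reads and a mean of 3.09 CPM with DNMT1i, at least 55.6-fold higher. The MAGEA, PAGE, GAGE and CT45A genes have near copies, so their counts could be split among relatives. The share of X-linked genes that were higher, 10.6%, includes these families.

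Sperm structure and metabolism genes numbered 56, of which 16 were tested, 8 (50%, against 5.72% of all) were higher and 0 lower (median log2 fold-change 1.73). Members off in DMSO were 5 of the 16. DPEP3, a dipeptidase of the testis, had the largest rise of the named genes low in DMSO, from 0.381, 0.589 and 0.126 CPM to 129, 145 and 128 CPM. TKTL1, a transketolase relative, rose from 1.72, 1.94 and 1.45 CPM to 43.2, 39.99 and 38 CPM (4.56 ± 0.14). TUBA3D and TUBA3E, testis α-tubulins, were almost without reads in DMSO (3 and 4 over the group); TUBA3E reached 9.43, 12.4 and 10.5 CPM and TUBA3D 18.8, 23.8 and 19.9 CPM. These tubulins are near copies of each other, so the split between them is uncertain. NKAPL, needed in male meiosis, had 1 DMSO read and 18.4, 16.4 and 17.3 CPM with DNMT1i, a ratio of 938 (95% counting interval 168 to 37102). The other genes with the highest final levels among those off in DMSO were PNMA5 (0.286, 0.177 and 0.251 to 35.3, 37 and 35.4 CPM), the glutathione peroxidase gene GPX3 (0.238, 0.177 and 0 to 28.7, 25.7 and 24.2 CPM) and the pseudogene TATDN2P1, whose 2 DMSO reads became 1399. DCAF4L1, a relative of the ubiquitin ligase adaptor DCAF4, rose from 0.62, 1.30 and 0.503 CPM to 73.6, 73.9 and 71.0 CPM (6.5 ± 0.20).

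**Figure D2:**
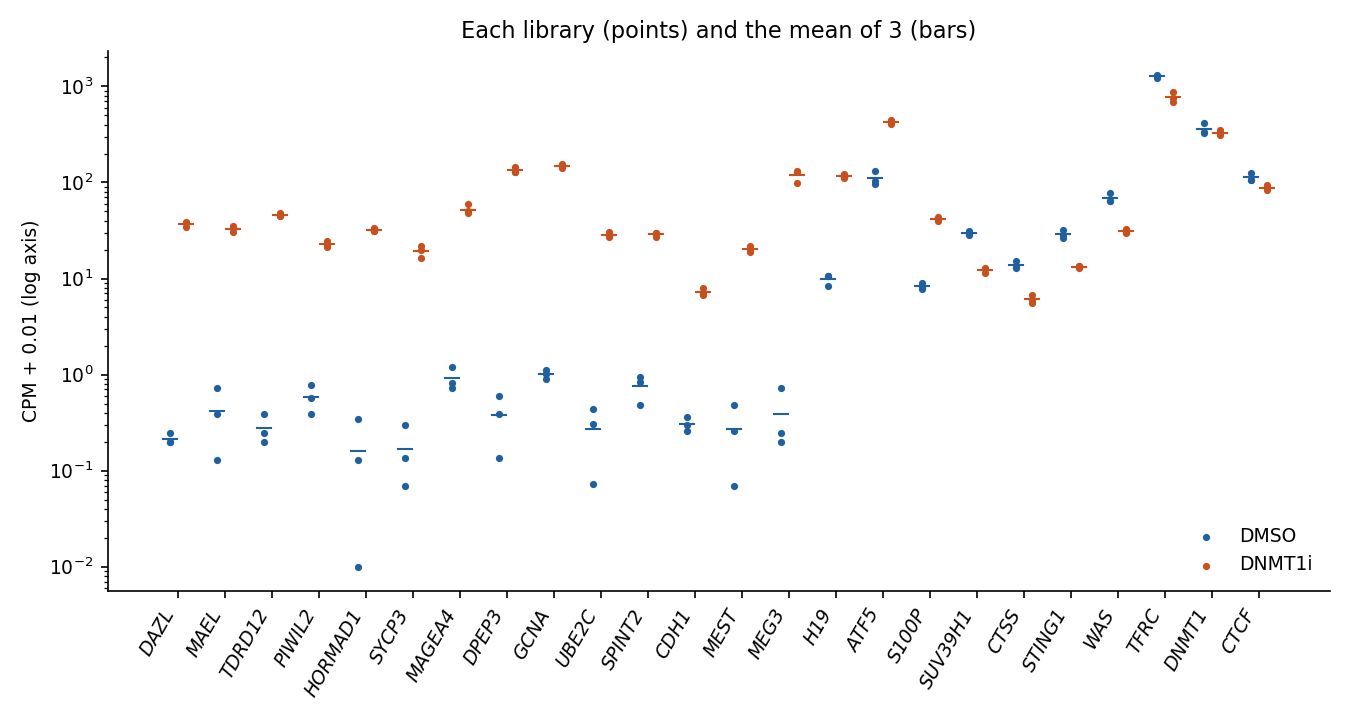
Each point is a K562 library, in CPM plus 0.01 on a log axis, for 24 of the genes described, with a bar at the mean of 3 DMSO (blue) or 3 DNMT1i (orange) libraries. For the silent genes on the left the groups stand more than 10-fold apart, while SUV39H1, CTSS, STING1, WAS and TFRC are lower with DNMT1i and DNMT1 overlaps.

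Imprinted genes, which are expressed from a single parental allele, included some of the strongest changes but mostly did not pass the test. Of 16 maternally expressed genes, 12 were tested, 6 (50%, against 5.72% of all) were higher and 1 was lower (TP73, −0.76 ± 0.20, p-adj = 0.0413). Members off in DMSO were 4 of the 12. At the DLK1-MEG3 cluster on chromosome 14 the noncoding RNAs MEG3, MEG8 and MEG9 rose, while the protein-coding gene DLK1 was not called (log2 fold-change −0.21). MEG3 went from 0.238, 0.707 and 0.189 CPM to 132, 97.6 and 129 CPM, and MEG8 from 0.143, 0.236 and 0.0628 CPM to 12.4, 12 and 11.9 CPM. MEG9 had 1 DMSO read and 73 with DNMT1i, a ratio of 69.2 (95% counting interval 12 to 2770). H19, a noncoding RNA of another imprinted cluster, was expressed in DMSO at 8.39, 10.7 and 10.6 CPM and rose to 112, 123 and 114 CPM (3.56 ± 0.12). Of 25 paternally expressed genes, 9 were tested, 2 (22.2%) were higher and 0 lower (median 0.29), and 3 of the 9 were off in DMSO. MEST, a hydrolase gene, rose from 0.477, 0.0589 and 0.251 CPM to 20.4, 18.8 and 21.6 CPM (6.16 ± 0.27), and FAM50B had 2 DMSO reads and 320 with DNMT1i (ratio 152, interval 41.6 to 1258).

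Some genes typical of epithelial cells were higher in this leukaemia line. Of 36 listed, 18 were tested, 10 (55.6%, against 5.72% of all genes tested) were higher and 0 lower, with a median log2 fold-change of 1.06. Members off in DMSO were 5 of the 18. SPINT2, an inhibitor of membrane serine proteases, rose from 0.477, 0.825 and 0.943 CPM to 29.7, 30.1 and 27.3 CPM (5.30 ± 0.18). CDH1, which encodes E-cadherin, was at 0.286, 0.354 and 0.251 CPM in DMSO and at 6.76, 7.99 and 7.11 CPM with DNMT1i (4.58 ± 0.23). ESRP2, an epithelial splicing regulator, rose from 0, 0.118 and 0.251 CPM to 6.32, 5.6 and 4.95 CPM (5.57 ± 0.41). The groups were apart for all 3 genes. EPCAM, an adhesion protein, was expressed in DMSO and rose less, from 93.1, 89.0 and 87.9 CPM to 148, 140.4 and 147 CPM (0.69 ± 0.08). EPCAM is also a member of the HCT116 marker sum given above, and most of the rise of that sum lies in EPCAM. VIL1, the other marker called higher, rose from a mean of 0.117 to 1.22 CPM and stood at 0.159 CPM in HCT116 DMSO. KRT19, the marker most abundant in HCT116 (1020 CPM), stood at 62.3 CPM in K562 DMSO and 59.4 CPM with DNMT1i. CLDN4, ELF3 and CDX2, other markers of HCT116, each stayed below 0.4 CPM in both K562 groups. Of 24 fibroblast and mesenchymal genes, 10 were tested and only S100A4 was higher (0.80 ± 0.16), 10% against 5.72% of all. That call was lost without DNMT1i replicate 1 (p-adj = 0.0643). Of 55 keratin genes, 6 were tested and KRT12 (3.10 ± 0.35) and KRT15 (1.36 ± 0.28) were higher (33.3%, against 5.72% of all). KRT15 lost its call without DMSO replicate 1, DMSO replicate 2 or DNMT1i replicate 2 (p-adj 0.053 to 0.0603).

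Other developmental and cancer-silenced groups had smaller shares of higher genes than the germline lists. Of 39 HOX genes 13 were tested and 4 (30.8%, against 5.72% of all) were higher; HOXC10 rose from 0.715, 0.53 and 0.251 CPM to 6.61, 7.75 and 7.16 CPM (3.78 ± 0.25), HOXC6 and HOXC8 each by 1.47, and HOXB6 by 0.94, whereas HOXC4, in the same cluster, fell by 1.01 (p-adj = 0.0498). None of 53 clustered protocadherins had enough reads to be tested, although 28 had a read. Of 52 neuronal and synaptic genes 14 were tested, with CAMK2B (2.27 ± 0.38) and CPLX1 (1.1 ± 0.30) higher (14.3%, against 5.72% of all) and BSN lower (−0.96 ± 0.23). The CPLX1 call did not hold with DESeq2 (p-adj = 0.195) or with replicate number as a block (p-adj = 0.0931), nor without 5 of the 6 libraries, and that of BSN was lost without DMSO replicate 2 or any of the DNMT1i replicates (p-adj 0.0558 to 0.0946). Of 35 tumour suppressors and Wnt antagonists known for promoter methylation in cancers, 13 were tested and 1 (7.69%, near the 5.72% of all) was higher. This was HIC1, a transcriptional repressor (1.75 ± 0.36), a call lost without DNMT1i replicate 1 (p-adj = 0.0645). Of 44 collagen genes 8 were tested and of 11 metallothioneins 2, with 0 called in either list, too few to set against the 5.72% of all genes.

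Zinc finger genes of chromosome 19, a family in which many members repress transposons, were examined as a family. Of 249 listed, 168 were tested, 28 (16.7%) were higher and 1 was lower (ZNF358, −0.97 ± 0.19), beside 5.72% higher over all genes tested. The median log2 fold-change over the 168 was 0.10, and 22 of the 168 were off in DMSO. ZNF302 had 0 DMSO reads and 3.45, 3.09 and 2.89 CPM with DNMT1i, at least 56.6-fold higher. ZNF615 rose from 0.0477, 0.0589 and 0.126 CPM to 4.10, 4.61 and 4.07 CPM (5.71 ± 0.33), and ZNF134 from 1.14, 1.0 and 0.754 CPM to 4.24, 4.66 and 4.28 CPM (2.16 ± 0.20).

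**Figure D3:**
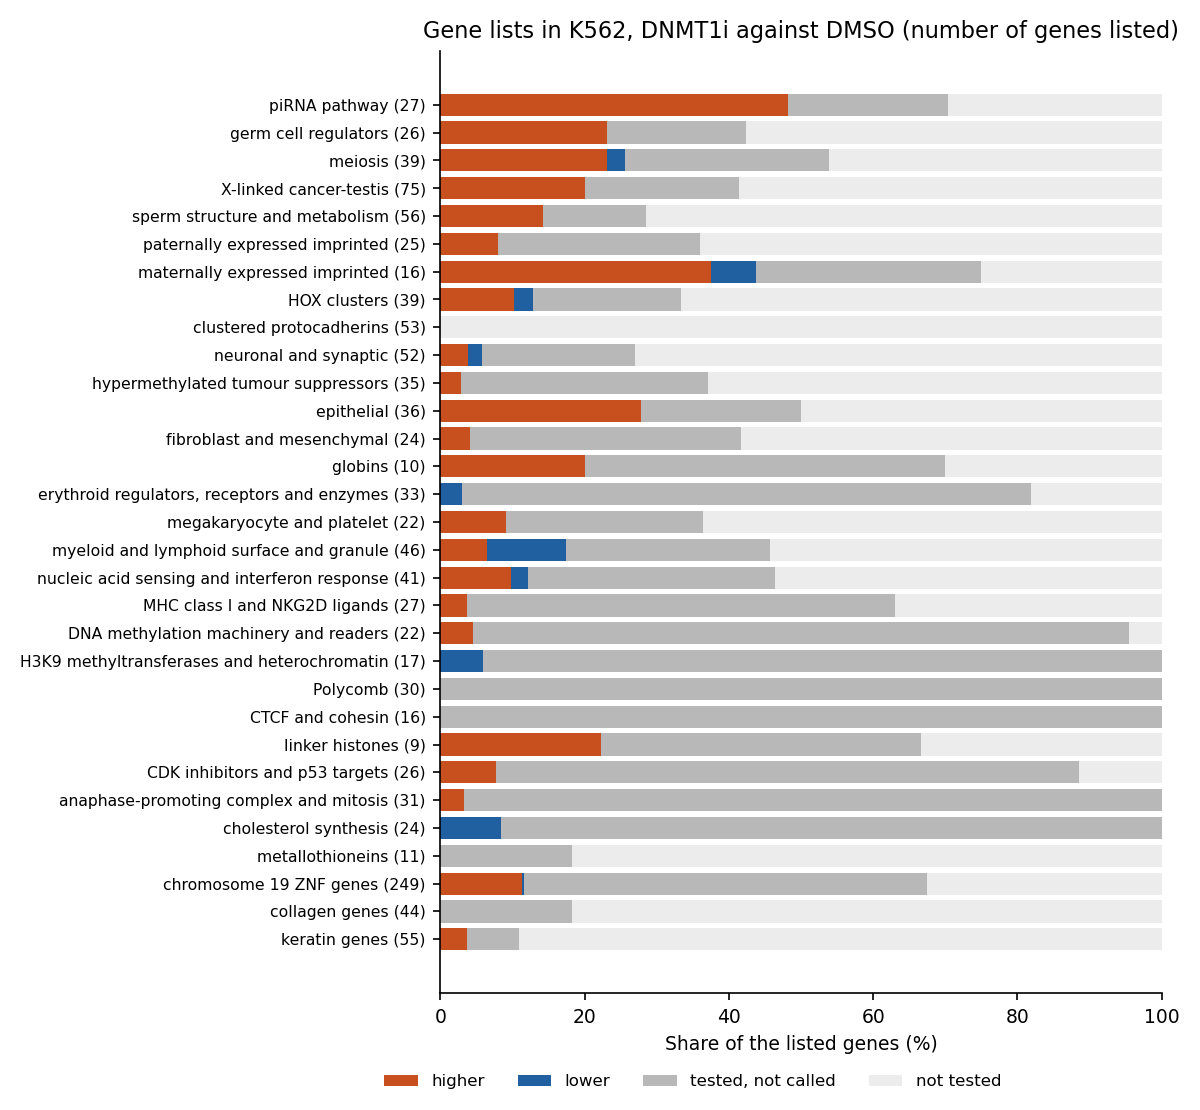
Each bar is a gene list, with the number of genes listed in brackets and the share of them that were higher, lower, tested and not called, or not tested on the x axis (%). The piRNA list has the longest orange bar (13 of 27 genes higher), and the Polycomb and CTCF and cohesin lists, tested in full, have no called gene.

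UBE2C was among the largest rises outside the germline. This gene, the ubiquitin-conjugating enzyme that works with the anaphase-promoting complex, was at 0.429, 0.295 and 0.0628 CPM in DMSO and at 27.5, 30.6 and 27.0 CPM with DNMT1i (6.64 ± 0.25, p-adj = 3.39e-08). It was 1 of 31 genes of that complex and of mitosis, all tested, and the only member called (3.23% higher, against 5.72% of all genes tested). UBE2S, the partner enzyme that extends ubiquitin chains, had a log2 fold-change of 0.10 (p-adj = 0.75) and CDC20, an activator of the complex, −0.13 (p-adj = 0.47). Among 9 linker histones, 6 were tested and 2 (33.3%, against 5.72% of all) were higher. H1-2, a somatic linker histone, rose from 316, 315 and 361 CPM to 535, 602 and 609 CPM (0.82 ± 0.09) and the testis form H1-6 from 0.0954, 0.236 and 0.377 CPM to 1.33, 0.816 and 1.24 CPM. H1-2 and H1-6 messages mostly lack the poly(A) tails selected here, so their levels are uncertain.

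Among genes expressed in DMSO, the largest rises were in TRBC2, a T-cell receptor constant region (0.811, 0.648 and 0.88 to 26.4, 25.4 and 27.8 CPM, 5.08 ± 0.15), and the pseudogene TM9SF5P (4.28 ± 0.14). FADS2, a fatty acid desaturase, rose from 33.9, 31.8 and 39.8 CPM to 212, 236 and 199 CPM (2.62 ± 0.11). ATF5, a stress-responsive transcription factor, was the most abundant of these genes and rose from 95.8, 105 and 133 CPM to 426, 451 and 401 CPM (1.94 ± 0.12). The calcium-binding proteins S100P (8.20, 7.84 and 8.99 to 43.3, 39.3 and 41.3 CPM, 2.31 ± 0.11) and S100A6 (1.14, 1.77 and 1.63 to 9.03, 8.51 and 7.94 CPM, 2.50 ± 0.18) rose as well. RHOXF2B, a homeobox gene of the testis with a near copy, rose by 2.34 ± 0.20.

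The falls were smaller, and 147 of the 197 lower genes were expressed in DMSO. SUV39H1, an H3K9 methyltransferase of heterochromatin, fell from 31.4, 28.5 and 29.3 CPM to 12.6, 13 and 11.5 CPM (−1.26 ± 0.10, p-adj = 1.63e-05), with all DNMT1i libraries below all DMSO libraries. It was the only 1 of 17 genes of that machinery to be called, beside 5.72% higher and 1.44% lower over all genes tested. The paralog SUV39H2 had a log2 fold-change of −0.10 (p-adj = 0.66). WAS, an actin regulator of blood cells, fell from 63.4, 64.1 and 77.9 CPM to 30.4, 32.8 and 29.4 CPM (−1.15 ± 0.11), and CTSS, a lysosomal protease of antigen-presenting cells, from 13.1, 15.3 and 13 CPM to 6.02, 6.70 and 5.51 CPM (−1.18 ± 0.13). CD300A, an inhibitory receptor of leukocytes, fell from 12, 11.8 and 12.3 CPM to 4.94, 6.94 and 4.12 CPM (−1.18 ± 0.17). The remaining expressed genes with the largest falls were ADTRP (−1.28 ± 0.14), ACBD7 (−1.17 ± 0.16) and SLC16A4-AS1 (−1.19 ± 0.28). The last is an antisense RNA counted without a stated strand setting, and its call was lost with the replicate block (p-adj = 0.0528) and without either of DMSO replicates 1 and 2 or DNMT1i replicates 1 and 2 (p-adj 0.0612 to 0.074).

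The myeloid and lymphoid list went in both directions. Of 46 genes 21 were tested; 5 were lower (CD84, CD300A, CTSS, PTPRC and LYZ) and 3 (14.3%) were higher, against 1.44% and 5.72% of all genes tested. CD84, a leukocyte adhesion receptor that was low in DMSO, fell more than any named gene expressed there (−1.38 ± 0.18). PTPRC, the leukocyte phosphatase CD45, fell from 223, 223 and 197 CPM to 135, 128 and 145 CPM (−0.66 ± 0.09). FCER1G, an adaptor of Fc receptors, rose from 0.191, 0.118 and 0.189 CPM to 5.53, 4.72 and 4.64 CPM (4.84 ± 0.27), and TYROBP, a related adaptor, from 1.29, 1.18 and 1.26 CPM to 3.36, 3.32 and 2.73 CPM (1.33 ± 0.20). Of 33 erythroid regulators, receptors and enzymes, 27 were tested and only TFRC, the transferrin receptor, was called, beside 5.72% higher and 1.44% lower of all. TFRC fell from 1276, 1227 and 1305 CPM to 762, 691 and 883 CPM (−0.70 ± 0.09, p-adj = 0.000596). The master regulators GATA1 (−0.04), KLF1 (0.09) and TAL1 (0.22) were not called. Of 10 globin genes 7 were tested, and the embryonic ζ-globin gene HBZ (13.3, 14.7 and 22.7 to 32.6, 28.4 and 29.8 CPM, 0.85 ± 0.18) and HBA2 (0.69 ± 0.11) were higher (28.6%, against 5.72% of all). HBZ lost its call without DNMT1i replicate 1 (p-adj = 0.0599), and HBA2 has a near copy in HBA1 (0.21 ± 0.19, p-adj = 0.59). In the megakaryocyte and platelet list, 8 of 22 genes were tested and the collagen receptor GP6 (1.19, 1.06 and 1.63 to 9.48, 10.4 and 11.8 CPM) and the platelet tubulin TUBB1 (0.143, 0.177 and 0.314 to 1.04, 1.28 and 1.49 CPM) were higher (25%, against 5.72% of all).

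Innate immune genes went in both directions. Of 41 nucleic acid sensing and interferon response genes 19 were tested. IRF7, ISG15, IFITM3 and RSAD2 were higher (21.1%, against 5.72% of all) and STING1 was lower, and the median was 0.05. STING1, the adaptor of cytosolic DNA sensing, fell from 28.7, 26.2 and 32.0 CPM to 13.4, 12.9 and 13.5 CPM (−1.13 ± 0.11). IFITM3, an antiviral membrane protein, rose from 64.9, 63.6 and 94.0 CPM to 147, 160.2 and 148 CPM (1.03 ± 0.14), and IRF7, a transcription factor of the interferon response, from 1.91, 1.18 and 1.38 CPM to 3.65, 4.20 and 3.45 CPM (1.31 ± 0.21). Of 27 MHC class I and NKG2D ligand genes 17 were tested and 1 (5.88%, near the 5.72% of all genes tested), the immunoproteasome subunit gene PSMB8 with 3 DMSO reads and 67 with DNMT1i, was higher (ratio 21.2, 95% counting interval 6.94 to 105). The cell cycle inhibitor CDKN1A rose from 6.63, 5.72 and 7.35 CPM to 10.3, 12.9 and 12.3 CPM (0.85 ± 0.14). With PLK2 (2.75 ± 0.36) it was 1 of 2 genes called of 23 tested among CDK inhibitors and p53 targets (8.70% higher, near the 5.72% of all genes tested). In the cholesterol synthesis list all 24 genes were tested, 2 were lower and 0 higher, beside 1.44% lower and 5.72% higher of all. The 2 were HMGCS1 (908, 979 and 725 to 605, 514 and 559.8 CPM, −0.64 ± 0.11) and INSIG1 (−0.51 ± 0.11). The call of INSIG1, which lies at the size limit, was lost without DMSO replicate 2 and without DNMT1i replicates 1 and 2, and the list's median was −0.17.

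The machinery of DNA methylation held 1 called gene, a share near that of all genes. Of 22 genes for methyltransferases, TET enzymes and methyl-CpG readers 21 were tested and only MBD1 (4.76% of those tested, against 5.72%), a methyl-CpG-binding repressor, was higher (28.4, 26.5 and 28.6 to 42.1, 39.3 and 39.1 CPM, 0.53 ± 0.09). Its log2 fold-change was 0.49 without DMSO replicate 2 and without DNMT1i replicate 1, below the size limit. UHRF1, which brings DNMT1 to replicated DNA, had 0.39 (p-adj = 0.201), DNMT3A −0.11 and DNMT3B 0.13. All 30 Polycomb genes and all 16 CTCF and cohesin genes were tested with 0 called, beside 5.72% higher and 1.44% lower of all. CTCF itself was at 107, 105 and 126 CPM in DMSO and at 84.2, 87.9 and 93.2 CPM with DNMT1i, all below DMSO (−0.35 ± 0.10, p-adj = 0.0498), which is short of the size limit.

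Promoter sequence was then set beside the calls, using the RefSeq promoters matched to 9791 tested genes by symbol. Higher genes had a median of 21 CG in 300 bases, lower genes 21 and all tested genes 26. By starting level, off genes that were tested had a median of 20 and expressed genes 27. Over all off genes with a promoter, tested or not, the share that was higher was 0.571% at 0 to 2 CG, 1.13% at 3 to 5, 2.07% at 6 to 10, 4.46% at 11 to 20, 4.83% at 21 to 30 and 2.94% over 30. The share was highest in the classes that hold MEG3 (19 CG) and TDRD12 (26 CG). Among expressed genes the order was the reverse, with 5.26% higher and 7.52% lower at 0 to 2 CG against 1.72% and 0.96% over 30. These shares are a description, and CG content was not separated from other features of the promoters.

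**Figure D4:**
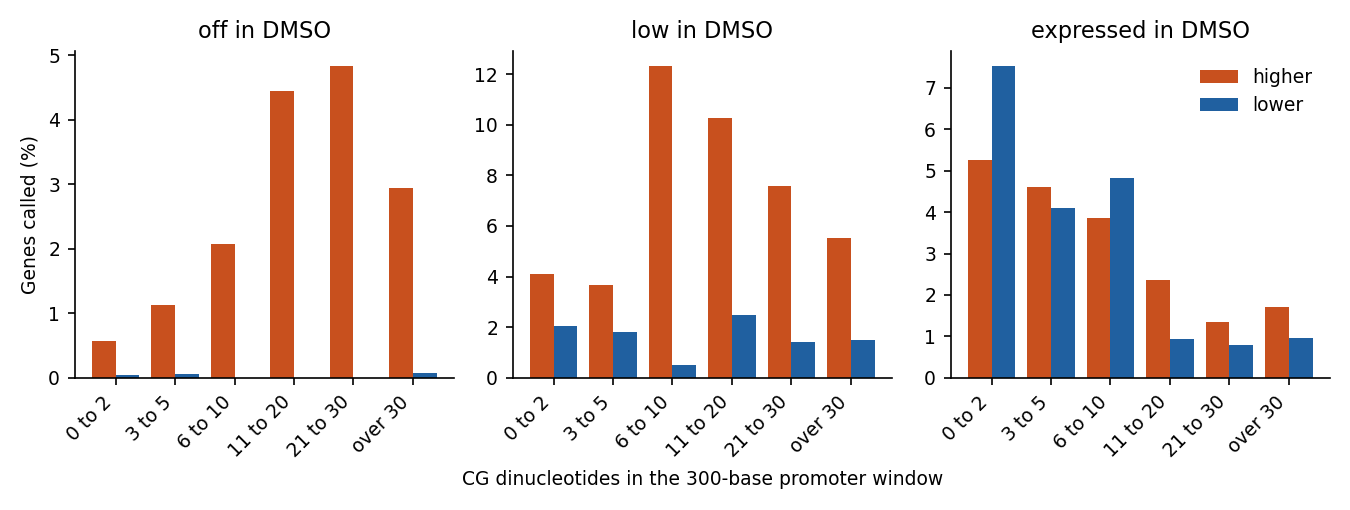
Bars give the share of genes (%) that were higher (orange) or lower (blue) with DNMT1i by the number of CG dinucleotides in the 300-base promoter, for all genes in the tables that were off, low or expressed in DMSO; the y axes differ between panels. Higher genes reach 4.83% of off genes at 21 to 30 CG and 12.3% of low genes at 6 to 10 CG.

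Sequence motifs that hold a CG and are bound by known factors were searched by their exact letters (each reads the same on both strands). The E-box CACGTG was in 13.6% of promoters of off genes that rose (30 of 221), in 10.5% of all tested genes and in 7.44% of all promoters of that length. Over all 9234 off genes with a promoter, tested or not, the E-box was in 6.19%. It was present at TDRD12, YBX2, BRDT, PNMA5 and TUBA3E, and at DPEP3, GCNA and STAG3 among genes low in DMSO. The cAMP response element TGACGTCA was in 4.07% of the off genes that rose (9 of 221), including MEG3, in 3.66% of tested genes and in 1.98% of all promoters. Over all off genes it was in 1.22%. The longer palindrome bound by NRF1 was in 1.36% of the off genes that rose (3 of 221), in 2.44% of tested genes and in 1.36% of all promoters. Over all off genes it was in 0.682%. A match is a description of letters, not of a bound site.

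Exon bins, the pieces into which overlapping transcripts divide a gene, were tested for a change in use relative to their gene. Of 192856 bins tested, 59 (0.0306%) had higher and 25 (0.013%) lower relative use at a p-adj below 0.05 and a relative |log2 fold-change| above 1, in 40 genes. In 28 of these the gene as a whole was not called. Some of the 28, such as TPM4, CPED1 and FDFT1, passed the p-adj limit as genes and fell short only of the size limit. Of the higher bins 40 (67.8%) lay in an annotated first exon, against 33.0% of all tested bins, and of the lower bins 15 of 25. Bins of a gene share reads, so neighbouring bins are not separate observations. Without DNMT1i replicate 1 or 2, 37 and 38 bins were higher.

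To show the sequence at first exons that gained reads with DNMT1i, 200 bases before an annotated transcript start (hg38) are given for SLC7A8 and TECR, with CG in capitals. The 3′ end of each window overlaps first-exon pieces of transcripts that start slightly further upstream, which also gained reads: bin 41 of SLC7A8 went from 0 to 11, 22 and 12 reads, and bin 36 of TECR from 0 to 28, 30 and 26.
SLC7A8, chr14:23183642-23183841 (- strand): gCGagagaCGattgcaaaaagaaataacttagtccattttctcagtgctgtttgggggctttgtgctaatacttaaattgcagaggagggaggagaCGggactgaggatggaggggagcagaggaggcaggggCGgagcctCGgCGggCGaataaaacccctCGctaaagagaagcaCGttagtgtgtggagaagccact
TECR, chr19:14564498-14564697 (+ strand): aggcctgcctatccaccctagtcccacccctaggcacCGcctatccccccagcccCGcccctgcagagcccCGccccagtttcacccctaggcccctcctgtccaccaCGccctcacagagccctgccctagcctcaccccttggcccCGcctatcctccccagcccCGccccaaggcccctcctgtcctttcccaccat
They hold 9 and 6 CG.

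At FADS2 the rise began at an internal first exon. Bin 1, in the upstream exon, held 70, 34 and 51 reads in DMSO and 35, 47 and 35 with DNMT1i, so its counts overlapped while the gene rose (relative log2 −3.12). Bin 13, in the internal first exon, held 3, 0 and 1 reads in DMSO and 209, 216 and 195 with DNMT1i (relative log2 4.43, p-adj = 1.11e-18). Bin 16, in a later exon, went from 150, 114 and 113 to 961, 896 and 876 reads in step with the gene (relative log2 0.13). In HCT116 cells, FADS2 had a log2 fold-change of −0.65.

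SLC7A8, an amino acid transporter, gained a set of upstream exons. Of its bins 9 were higher, each with 0 reads in DMSO, and bin 40, which follows the window above, held 57, 54 and 48 reads with DNMT1i. The gene as a whole rose only from 59.5, 59.98 and 70.8 CPM to 86.1, 96.4 and 88.1 CPM (0.51 ± 0.10), and its 3′ bin 3 had a relative log2 of −0.10. TECR, an enzyme of very long chain fatty acid synthesis, gained reads at a first exon close to its 3′ end, where bin 37 held 0, 1 and 1 reads in DMSO and 37, 34 and 35 with DNMT1i, while the gene was not called (0.37 ± 0.11, p-adj = 0.0566).

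FDFT1, which makes squalene for cholesterol synthesis, had the bin with the smallest p. Bin 1, its most upstream exon on chromosome 8, rose from 22, 12 and 13 to 306, 271 and 314 reads (relative log2 4.44, p-adj = 2.46e-48). The gene as a whole stayed short of the size limit, at 813, 833 and 856 CPM in DMSO and 682, 681 and 674 CPM with DNMT1i (−0.30 ± 0.07). NPC1, a lysosomal cholesterol transporter, gained reads at bin 50, a first exon, from 13, 6 and 6 to 124, 99 and 67, and TPM4, a tropomyosin, at bin 3 from 4, 4 and 4 to 64, 60 and 51, with 7 of its bins higher. LIN28B, a blocker of let-7 maturation that was chosen after its values were seen, gained bin 4 (0, 1 and 0 to 29, 32 and 24 reads) and the gene was not called (−0.01 ± 0.12).

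CPED1 showed the opposite. It was abundant at 1433, 1516 and 1306 CPM in DMSO and had 13 bins with lower relative use, all towards its 5′ end. Bin 19, an annotated first exon (chr7:121076578-121076648), fell from 969, 727 and 753 to 226, 218 and 241 reads (relative log2 −2.28, p-adj = 4.03e-19), and bin 6 from 543, 389 and 416 to 182, 186 and 173 reads (−1.75). The bins after it did not fall: bin 20 held 2452, 1955 and 2049 reads in DMSO and 2988, 2725 and 2948 with DNMT1i, and the gene was not called (0.33 ± 0.08). AGPAT4, an acyltransferase, had lower relative use at bin 15, a first exon whose reads were level (66, 67 and 53 to 71, 68 and 60) while the gene rose by 1.64 ± 0.09. UBE2C bins held at most 5 reads in any DMSO library, so a change in their relative use was not detectable at this depth.

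**Figure D5:**
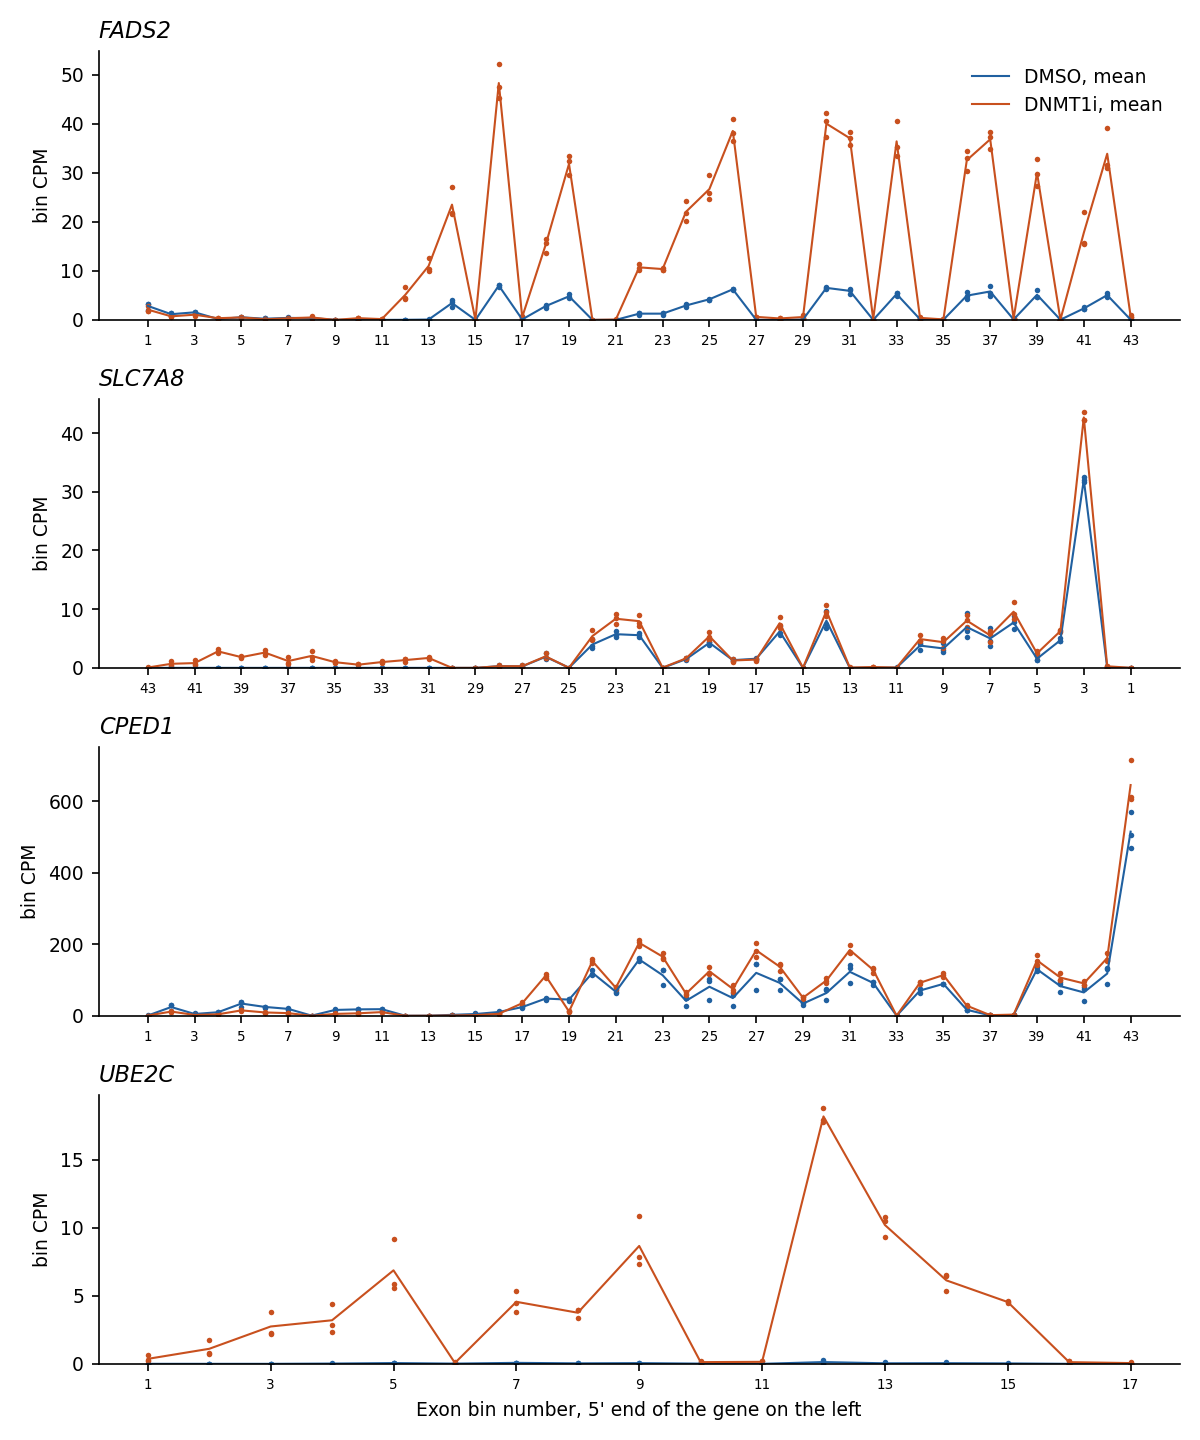
Exon bin levels in CPM (y axis) along 4 genes, with bins numbered in order and the 5′ end on the left (x axis); points are libraries and lines join the means of 3 DMSO (blue) and 3 DNMT1i (orange) libraries. In FADS2 the lines part from bin 12 on at this scale (bins 10 and 11 gain at most 7 reads), SLC7A8 gains bins 42 to 31, CPED1 loses bin 19 and rises at bin 18, and UBE2C is near 0 in DMSO throughout.

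To show where the K562 response differed from that of another line, it was set beside HCT116 cells given the same treatment, where 3748 genes were higher and 2481 lower by the same rule. Of the 785 genes higher in K562, 396 were also higher in HCT116 (50.4% of the K562 genes and 10.6% of the HCT116 genes), 56 were lower there and 121 were not tested. Of the 197 lower genes 60 were also lower in HCT116 (30.5% and 2.42%) and 29 were higher. The share of all genes tested in K562 that were called in HCT116 was not computed. These overlaps therefore do not show whether the lines share more genes than their numbers of calls would give. The difference of responses was tested in a fit of 12 libraries: it was more positive in K562 at 2435 of 17237 genes (14.1%) and more negative at 2699 (15.7%). Of the 785 genes it was more positive in K562 at 283 and more negative at 125, a split that the choice of genes higher in K562 favours. UBE2C, SPINT2, CDH1 and MEST were among those that rose more in K562, with differences of 6.96, 5.26, 5.22 and 5.72 on the log2 scale. All of these were well expressed in HCT116 without the inhibitor, UBE2C at 82.4 CPM, SPINT2 at 133 CPM, CDH1 at 182 CPM and MEST at 43.4 CPM. DAZL, MAEL and TKTL1 rose less in K562, with differences of −3.69, −3.98 and −5.64, and reached 245, 105 and 1589 CPM in HCT116 against means of 37.3, 33.1 and 40.4 CPM in K562. ATF5 had a difference of 0.00 (p-adj = 1.0), with log2 fold-changes of 1.94 in K562 and 1.95 in HCT116, and TDRD12, MEG3 and GCNA had differences that did not pass the test (−1.30, −0.43 and −0.58, p-adj 0.10, 0.661 and 0.138).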

How the data were processed

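Poly(A)-selected RNA-seq libraries carrying unique molecular identifiers (UMIs) were analysed from 6 wild-type K562 samples, with 6 wild-type HCT116 samples and 3 DMSO samples of the tagged K562 line for comparison. As its methods and the notes on processing by the submitters say, the authors trimmed adapters with cutadapt 2.7, aligned reads to hg38 with STAR 2.6.0, removed duplicates with UMI-tools 1.1.1 and counted reads per gene and per exon bin with HTSeq; they deposited raw counts without normalization. Duplicate removal does not correct uneven capture, and intervals cover counting error only. The sources used here do not give whether counting used strand, which leaves antisense and overlapping genes uncertain. Reads not placed in a single gene (18.7% to 19.9% per K562 library) stayed out of tests and library sizes. Deposited tables of the authors' own comparisons (log2 fold changes, p-values from DESeq2 1.28 in R 4.0.2) and 18 columns of per-sample values in them were not used, except that exon bin coordinates came from the K562 exon table.

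CPM are gene counts in 1000000 of the library, scaled by TMM. Of 60664 genes, 60463 (99.7%) matched GENCODE 44, which gave positions and exon lengths. After filterByExpr and TMM scaling, counts of the 6 K562 libraries went into the quasi-likelihood test of edgeR 4.0.16 under R 4.3.3, with no pairing, and the interaction with cell line on 12 libraries. Each standard error is |log2 fold-change| divided by the root of the F statistic. Exon bins with at least 50 counts were tested with edgeR's diffSpliceDGE. DESeq2 1.42.0 and limma 3.58.1 gave alternatives. The tests were checked on simulated data. Where DMSO had 0 counts the fold is a bound against 3 counts over the group, and with 1 to 3 counts a ratio with its exact 95% interval.

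Gene lists (31, with 1203 symbols), members and tests were chosen with earlier results of these data known. Named genes were those separating all DNMT1i from all DMSO libraries: the 8 with the highest final level among off genes, the 6 largest changes among low genes, the 8 largest rises and 8 largest falls among expressed genes, and up to 4 with the smallest p per list. In exon bins they were the smallest-p bin in each of 8 genes. DNMT1, CTCF, UBE2C, SUV39H1 and MEG3 were always named. A few items that the rules would name are not reported here and were left out of the lists. Genes named beyond this were chosen after their values were seen.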

Additional observations from a re-analysis of the deposited data

Results flagged for a closer look

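Responses that differed between K562 and HCT116 in the 12-library fit (edgeR's quasi-likelihood test of the interaction, adjusted p below 0.05) are given as the log2 response to DNMT1i in K562 minus that in HCT116. Of 89 named genes 43 differed, 23 more positive and 20 more negative in K562, beside 14.1% and 15.7% of all 17237 genes tested. Most named genes were picked for large or small-p changes in these K562 libraries, a choice that favours a difference. The part of base level or library in these differences was not tested. Genes with a far more positive response in K562 were ZNF302 (8.57), UBE2C (6.96), YBX2 (6.05), ESRP2 (5.94), MEST (5.72), FCER1G (5.53), SPINT2 (5.26) and CDH1 (5.22). A smaller excess was found for ZNF615 (3.66), FADS2 (3.28), PLK2 (2.40), DPEP3 (2.21) and S100A6 (2.19), and for HOXC10 (1.91), CPLX1 (1.55), TM9SF5P (1.54), KRT15 (1.53), HOXC6 (1.34), SPINT1 (1.26), ZNF134 (1.1), IFITM3 (0.77), S100A4 (0.74) and CDKN1A (0.59). The most negative differences were those of TKTL1 (−5.64), DDX43 (−4.98), RHOXF2B (−4.86), MAGEA4 (−4.59) and KRT12 (−4.35). They were followed by MAEL (−3.98), DAZL (−3.69), H19 (−3.44), CD300A (−3.44), H1-2 (−2.55), PNMA5 (−2.53), PIWIL2 (−2.04) and DCAF4L1 (−2.01), and by INSIG1 (−1.99), HMGCS1 (−1.97), IRF7 (−1.90), ADTRP (−1.66), HBA2 (−1.04), TFRC (−0.96) and ACBD7 (−0.69). The near copies of H1-2, HBA2 and RHOXF2B make their values less certain. RHOXF2B also had a mean of 0 CPM in HCT116 DMSO and 1.0 CPM with DNMT1i there. The size of its difference therefore rests on a baseline without reads. In K562 it rose from a mean of 1.79 to 8.99 CPM. ZNF302, YBX2 and DDX43 had few or no DMSO reads in K562, so the sizes of their differences are uncertain as well.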

How the results depend on the processing

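The numbers of higher and lower genes were 832 and 170 with DESeq2, 782 and 204 with RLE scaling, 1077 and 293 in the 12-library fit, and 1184 and 304 with no filter on low counts, which tests more genes. Of the 785 higher and 197 lower genes, 781 and 193 were also called without the filter, and 767 and 181 without DMSO replicate 3. Leaving out each library in turn gave 621 to 1109 higher and 112 to 392 lower genes, 37 to 60 exon bins with higher and 17 to 33 with lower relative use, and 114 to 148 list members higher and 10 to 28 lower, from 124 and 15. In the comparison with HCT116 it gave 2015 to 3079 genes with a more positive and 2345 to 3262 with a more negative response in K562. DESeq2 gave 1966 and 3275. Without K562 DMSO replicate 3, 148 list members were higher and 28 lower, and 58 and 33 exon bins had higher and lower relative use. The calls in single lists can therefore depend on that library. With limma's diffSplice 64 and 30 bins were called, and with bins of at least 20 counts 83 and 28. For DNMT1 RNA, leaving out each library gave log2 fold-changes from −0.1856 to 0.0066, the last without DMSO replicate 3 (adjusted p = 0.95). The alternative without units that join several genes could not be run, since the exon tables hold none. Causes of these shifts were not tested.

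Replicate numbers did not pair the samples: the deviations from the group means of same-numbered libraries had correlations of 0.4083, −0.3943 and −0.1473, and of the 3 numbers only 1 correlated best with itself. With replicate number as a block, 756 genes were higher and 151 lower, 51 and 22 exon bins were called, and 127 and 13 list members were called. In that fit 2000 and 2350 genes had a more positive and a more negative response in K562 than in HCT116. Low counts limit single values: a gene with 3 or fewer DMSO reads has a counting interval more than 10-fold wide.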
